A study of Rattus norvegicus with 48 samples.

Results

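miR-122 and miR-192, microRNAs known for their high level in hepatocytes, were followed through the regenerating rat liver. They were the rows rno-miR-122 and rno-miR-192 of the expression table, 2 of its 143 miRNAs, and were taken by name. Each was described by its log2 CPM (the count relative to an animal's scaled total count, on the log2 scale) and by its share of the summed signal of all 143 miRNAs in an animal. Whole liver tissue of 48 male Sprague-Dawley rats was assayed with NanoString probes, 3 animals in each of 16 groups. All animals were pair-fed a liquid diet, with ethanol (EtOH) or with carbohydrate in its place (CHO). Untreated animals of both diets were collected at 0 h, which means without surgery, or after partial hepatectomy (PHx), the surgical removal of 70% of the liver, with 6, 24 or 72 h of regeneration. Animals injected with saline, or with AM21, a locked nucleic acid oligonucleotide antisense to miR-21, were collected at 0 h and 24 h only. The injections were intraperitoneal, so AM21 was not directed to a single liver cell type. They were given 72 h before surgery and again directly after it. Which of them the unoperated 0 h animals received is not stated, so injected animals at 0 h and 24 h may also differ in dose. The labels number 4 sets of 12 animals. The 6 h and 72 h animals are all of set 4, while the 0 h and 24 h animals are of sets 1 to 3 with 1 animal of each group in each set. Time and set therefore cannot be told apart when 6 h or 72 h is compared with 0 h. The comparison of 72 h with 6 h, the comparisons between diets and those of AM21 lie within sets.

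A miRNA guides silencing proteins to messenger RNAs that pair with its seed, bases 2 to 8 counted from its 5′ end, and these messages are then translated less or degraded. miR-122 is the classic liver miRNA, made almost only in hepatocytes, and is known for its part in cholesterol metabolism, in keeping hepatocytes differentiated and in replication of hepatitis C virus. miR-192 is abundant in liver, intestine and kidney, is induced by p53 and is known to restrain the cell cycle. It is transcribed together with miR-194, another miRNA enriched in hepatocytes. In whole tissue, fewer cells of a type and less RNA per cell cannot be told apart.

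The mature sequences are shown because the seed is what defines a miRNA's target set, and because miR-192 has a near copy that a probe could also meet. They are the RefSeq entries, 5′ to 3′, with the seed in capitals and positions in the GRCr8 assembly, all on the plus strand.
rno-miR-122-5p: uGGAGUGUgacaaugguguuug
rno-miR-192-5p: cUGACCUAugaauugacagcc
rno-miR-215: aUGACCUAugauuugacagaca
rno-miR-194-5p: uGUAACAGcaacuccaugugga
miR-122-5p is at chr18:61028831-61028852 and miR-192-5p at chr1:212994232-212994252, each inside the hairpin of its own miRNA gene. Among 693 mature names in the reference, 0 others had the seed of miR-122. The seed of miR-192 was found in 1 other, miR-215 at chr13:99383003-99383024. Aligned from the first base, miR-192 and miR-215 were equal at 18 of 21 positions. miR-215 is not in the expression table, and how far the miR-192 probe also reads it was not tested. The Mir194-2 gene lies 100 bases from the Mir192 gene on chromosome 1, and a second copy, Mir194-1, gives the same mature miR-194 from chromosome 13, where Mir215 is. The table names no arm, and its rno-miR-122 and rno-miR-192 were read as the 5p arms.

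miR-122 was the highest of the 143 miRNAs in all 48 animals. Its share of the signal was 42.0% to 68.8%, with a median of 58.4%. The mean share was 58.1%, and the miRNAs that came next were miR-29a with 3.24%, miR-126 with 3.09%, miR-16 with 2.50% and miR-21 with 2.14%. In log2 CPM it ranged from 18.21 to 19.70. Between 34786 and 169469 counts stood behind each value, so that the 95% Wilson interval of a share was 0.365 to 0.797 percentage points wide. This interval covers counting error only.

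miR-192 was present at a lower level and ranked between 9 and 21. Its share was 0.576% to 1.60%, with a mean of 1.08% and the 16th place among mean shares. miR-194, its partner in transcription, had a mean share of 1.58%. miR-192 ranged from 12.43 to 13.90 log2 CPM. The counts behind it were 392 to 3234, and the counting error of 1 animal was 0.025 to 0.073 on the log2 scale. Levels of different miRNAs also depend on how well each probe captures its target, so the order between miRNAs is that of the signal.

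**Figure D1:**
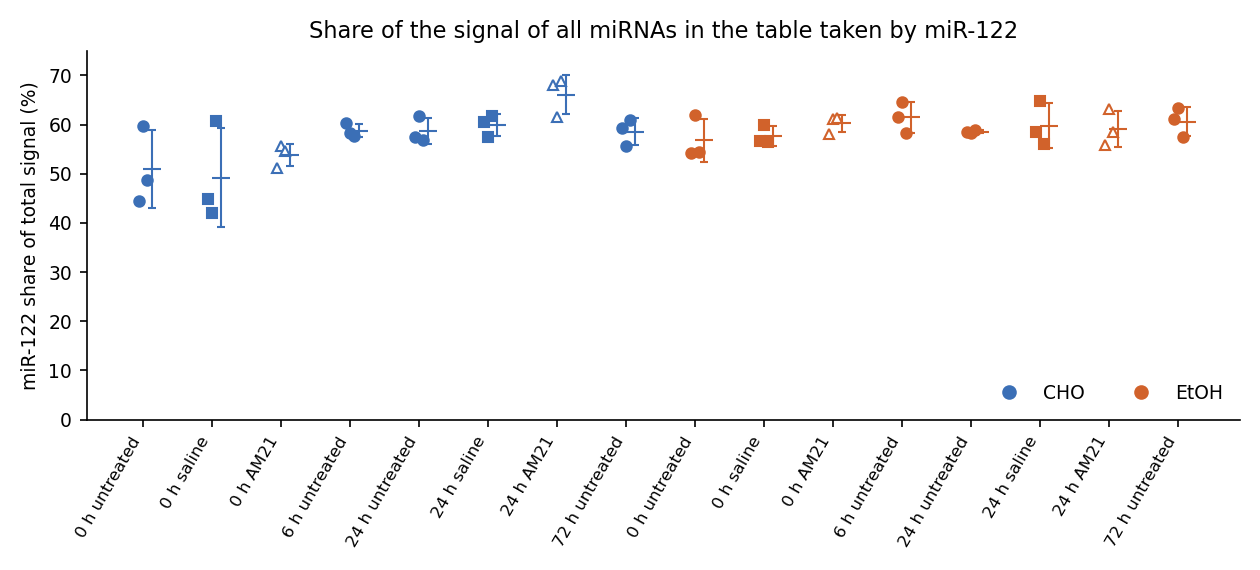
Share of the summed signal of all 143 miRNAs taken by miR-122, in percent from 0, for each animal of the 16 groups (blue CHO, orange EtOH; circles untreated, squares saline, open triangles AM21), with the mean and SD of 3 animals to the right of the points. The shares run from 42.0% to 68.8%, and the lowest ones are in CHO animals at 0 h.

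The group means of miR-122 lay close together. The highest was 19.53 ± 0.28 log2 CPM (SD, n = 3) in CHO animals 24 h after PHx with AM21. The lowest was 18.61 ± 0.60 (SD, n = 3) in CHO animals at 0 h with saline, followed by 18.70 ± 0.34 in untreated and 18.92 ± 0.13 in AM21-treated CHO animals at 0 h. The whole range of the group means was 0.92 on the log2 scale, or 1.89-fold. Placed in order, only 1 of the 15 gaps between neighbouring group means was wider than the larger SD of the pair, the gap between saline-treated EtOH animals at 0 h and AM21-treated CHO animals at 0 h. All 3 CHO groups at 0 h thus stood at the low end, and the other 13 groups followed each other without a gap wider than their spread.

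For miR-192 the range of the group means was 1.00 on the log2 scale, or 2.00-fold. The highest mean was 13.64 ± 0.22 log2 CPM (SD, n = 3) in untreated EtOH animals at 24 h. The lowest were 12.64 ± 0.19 in CHO animals and 12.72 ± 0.29 in EtOH animals, both at 6 h after PHx (SD, n = 3). Again 1 of 15 gaps exceeded the larger SD of its neighbours, that between untreated CHO animals at 72 h and saline-treated EtOH animals at 24 h. The low end of miR-192 was thus held by the 6 h animals, and that of miR-122 by CHO animals before surgery.

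miR-192 was lower 6 h after PHx. In untreated CHO animals it was 13.44, 12.59 and 13.56 log2 CPM at 0 h, and 12.43, 12.68 and 12.81 at 6 h. In untreated EtOH animals it was 13.90, 13.08 and 13.63 at 0 h, and 13.01, 12.72 and 12.43 at 6 h. The EtOH groups did not overlap, by the narrow margin of 13.08 against 13.01, whereas replicate 2 of the CHO animals at 0 h lay among the 6 h values. How many of all miRNAs were without overlap was not counted. Averaged over both diets, miR-192 fell by 0.69 on the log2 scale (SE 0.17, limma adjusted p = 0.00592, n = 6 against 6), a comparison in which 24.5% of all miRNAs were called at an adjusted p under 0.05. In EtOH animals alone it fell by 0.82 (SE 0.24, limma adjusted p = 0.0358), with 11.2% of miRNAs called. This call was lost without EtOH replicate 1 (-0.64, limma adjusted p = 0.170) or 3 (-0.77, limma adjusted p = 0.185) at 0 h, or without EtOH replicate 4_5 (-0.82, limma adjusted p = 0.0781) or 4_6 (-0.67, limma adjusted p = 0.119) at 6 h. It was also lost when only the groups compared were fitted (limma adjusted p = 0.127). In CHO animals alone the difference of -0.56 (SE 0.24) did not pass (limma adjusted p = 0.154), with 2.1% of miRNAs called, and was -0.86 without replicate 2 at 0 h (limma adjusted p = 0.0101). It passed with log10 total count in the fit (-0.65, limma adjusted p = 0.0127). The diets' differences were not shown to differ from each other (difference -0.26, SE 0.34, limma adjusted p = 0.988).

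At 24 h the level of miR-192 was in the range of 0 h. The 24 h animals were not compared with those at 6 h, which are of another set. The values at 24 h were 13.35, 12.89 and 13.46 log2 CPM in CHO animals and 13.88, 13.45 and 13.59 in EtOH animals. Against 0 h the difference over both diets was 0.07 (95% interval -0.28 to 0.42, limma adjusted p = 0.799), with 20.3% of miRNAs called. At 72 h the values were 13.53, 13.56 and 13.50 in CHO animals and 13.70, 13.52 and 13.49 in EtOH animals, the narrowest spread of the 4 time points in either diet. Against 0 h the difference at 72 h was 0.18 (95% interval -0.17 to 0.53, limma adjusted p = 0.410), with 35.7% called.

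The comparison of 72 h with 6 h, which lies within set 4, showed the lower level at 6 h without animals of another set. All 6 animals at 72 h were above all 6 animals at 6 h, and how many of all miRNAs were also without overlap was not counted. miR-192 was 0.87 higher at 72 h (SE 0.17, limma adjusted p = 0.000304), or 1.83-fold, with 46.9% of miRNAs called. The difference was 0.89 in CHO animals (SE 0.24, limma adjusted p = 0.00786), with 30.8% called, and 0.85 in EtOH animals (SE 0.24, limma adjusted p = 0.00769), with 37.1% called. With log10 total count in the fit neither passed, at 0.36 in CHO animals (limma adjusted p = 0.237) and 0.40 in EtOH animals (limma adjusted p = 0.103). The F test over the 4 times uses animals of sets 1 to 3 as well as set 4, so time and set cannot be told apart in it. It passed in both diets, with a limma adjusted p of 0.0374 in CHO animals (32.9% called) and 0.0112 in EtOH animals (39.9% called). The adjusted p of the first was 0.0645 to 0.137 without any 1 of 5 CHO animals, replicates 4_1 and 4_2 at 6 h and all 3 at 72 h, and that of the second was 0.0905 without EtOH replicate 4_6. The first also did not pass with values scaled to the total count alone (limma adjusted p = 0.0557) or with only the groups compared in the fit (limma adjusted p = 0.0732).

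**Figure D2:**
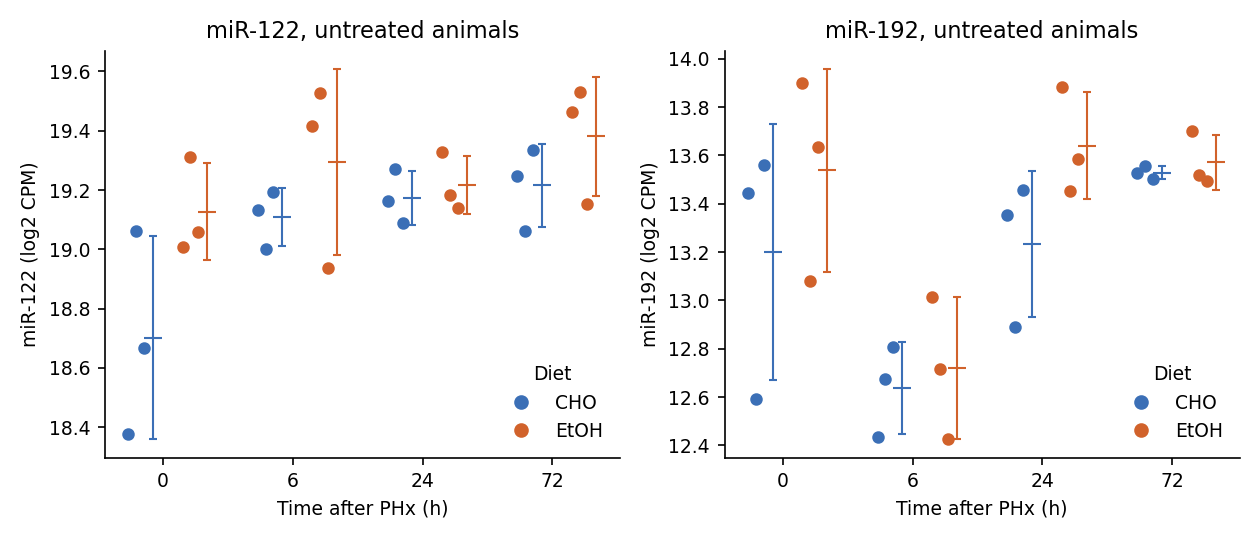
miR-122 (left) and miR-192 (right) in log2 CPM for each untreated animal at 0, 6, 24 and 72 h after PHx, in CHO (blue) and EtOH (orange) animals, with the mean and SD of 3 animals to the right of the points. miR-192 is between 12.43 and 13.01 in the 6 animals at 6 h and between 13.49 and 13.70 in the 6 animals at 72 h, while the miR-122 points of the times after PHx overlap.

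In the share of the signal, which does not use the scaling between animals, miR-192 was again lowest at 6 h. At 6 h miR-192 took 0.579%, 0.727% and 0.690% of the signal in CHO animals and 0.729%, 0.576% and 0.639% in EtOH animals. The mean was 0.657% ± 0.069 at 6 h against 1.20% ± 0.37 at 0 h (SD, n = 6 each), a difference of -0.544 percentage points (two-sided exact permutation test within diets, p = 0.015, adjusted p = 0.0675 over 18 tests of shares and ratios). It was 1.11% ± 0.08 at 72 h (SD, n = 6), higher than at 6 h by 0.453 percentage points (exact permutation p = 0.005, the smallest that 400 arrangements can give, adjusted p = 0.045). The ratio of miR-122 to miR-192 within an animal is free of any scaling. Its log2 was 0.98 higher at 6 h than at 0 h (exact permutation p = 0.015, adjusted p = 0.0675) and 0.77 lower at 72 h than at 6 h (difference -0.77, exact permutation p = 0.005, adjusted p = 0.045). The ratio also carries the difference of miR-122, 0.29 at 6 h against 0 h, and the share of miR-192 has miR-122 in its total. With miR-122 left out of that total, the miR-192 share at 6 h differed from 0 h by -0.921 percentage points, which did not pass either.

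miR-194, made from the same transcript, differed less than miR-192 at 6 h in value, and its own differences did not pass. At 0 h it was 13.80, 13.18 and 14.07 log2 CPM in CHO animals and 14.22, 13.63 and 14.20 in EtOH animals. At 6 h it was 13.22, 13.50 and 13.87 in CHO animals and 14.01, 13.87 and 13.41 in EtOH animals. The groups overlapped in both diets. The difference from 0 h was -0.20 over both diets (SE 0.16, limma adjusted p = 0.300), and from 6 h to 72 h it was 0.38 (SE 0.16, limma adjusted p = 0.0562).

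The ratio of miR-192 to miR-194 was looked at after these values were seen and is a description. At 6 h its log2 was -0.78, -0.83 and -1.07 in CHO animals and -0.997, -1.15 and -0.984 in EtOH animals. In the other 42 animals it ran from -0.77 to 0.21, with a median of -0.52 against -0.99 at 6 h. The 6 animals at 6 h thus had the lowest miR-192 for their miR-194 of all 48, the highest of them by a narrow margin. A second gene, Mir194-1, gives the same mature miR-194, so the ratio is not that of 1 transcript.

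The total count of an animal moved with miR-192. Total counts were 58168 to 267582 over the 48 animals. At 6 h they were 87009 to 196972 with a median of 103644, at 72 h 163533 to 267582 with a median of 204766, and at 0 h 58168 to 205241 with a median of 114141. Within groups, the deviations of miR-192 and of log10 total count had r = 0.74 over 48 animals, and only 1 of the other miRNAs had a higher r. For miR-194 it was 0.71, for miR-122 it was -0.056, and the median of all miRNAs was -0.0020. With log10 total count in the fit, the fall at 6 h was -0.70 (limma adjusted p = 0.000109), while the difference of 72 h from 6 h became 0.38 (limma adjusted p = 0.0539).

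Animals of like total count can be set side by side, though they differ in diet, set and treatment. The 6 h animal with the highest total, 196972, had miR-192 at 13.01 log2 CPM, and the 9 other animals with at least that total had 13.48 to 13.88. These 9 were EtOH animals, AM21 and saline among them, except CHO replicates 4_7 and 4_9 at 72 h. At the low end, the 3 animals at 6 h with totals under 100000 had 12.43 to 12.68, and the other 3 animals under that total had 12.59 to 13.08. All of these other 3 were untreated replicates 2, of set 2: CHO and EtOH at 0 h and CHO at 24 h. The low group held replicate 2 of the untreated CHO animals at 0 h, which had the lowest total of all, 58168, and the lowest miR-192 outside 6 h, 12.59. Without this animal the difference at 6 h over both diets was -0.84 (limma adjusted p = 0.000311).

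**Figure D3:**
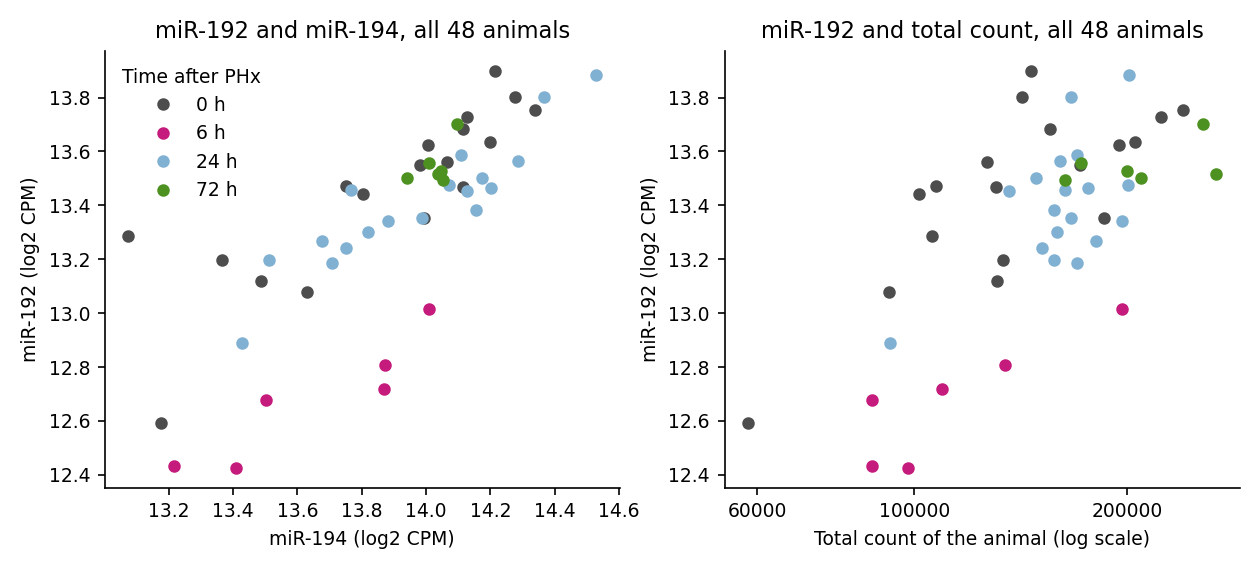
miR-192 in log2 CPM for all 48 animals against miR-194 in log2 CPM (left) and against the total count of the animal on a log axis (right), coloured by time after PHx. The 6 animals at 6 h lie lowest for their miR-194, and the 6 h animal with 196972 counts lies at 13.01, below the 13.48 to 13.88 of the 9 animals with at least as many counts.

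miR-122 did not show the low level at 6 h. In untreated CHO animals it was 18.38, 19.06 and 18.67 log2 CPM before surgery. It was 19.13, 19.00 and 19.19 after 6 h, 19.16, 19.27 and 19.09 after 24 h, and 19.25, 19.06 and 19.34 after 72 h. In untreated EtOH animals it was 19.01, 19.31 and 19.06 before surgery, and 19.41, 19.53 and 18.94 after 6 h, 19.33, 19.18 and 19.14 after 24 h, and 19.46, 19.53 and 19.15 after 72 h. The low values were those of CHO animals before surgery, and replicate 2 at 0 h lay among the later times.

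Over both diets, miR-122 at 6 h differed from 0 h by 0.29 (95% interval 0.02 to 0.55, limma adjusted p = 0.0879) and at 24 h by 0.28 (95% interval 0.01 to 0.55, limma adjusted p = 0.122), with 24.5% and 20.3% of miRNAs called. Without replicate 2 of the CHO animals at 0 h both passed, with 0.38 (limma adjusted p = 0.0158) and 0.37 (limma adjusted p = 0.0347), and without EtOH replicate 4_6 the first did (0.38, limma adjusted p = 0.0342). At 72 h it rose by 0.38, or 1.31-fold (SE 0.13, limma adjusted p = 0.0234), with 35.7% of miRNAs called. In CHO animals alone the difference at 72 h was 0.51 (limma adjusted p = 0.0521, with 18.2% called) and in EtOH animals alone 0.26 (limma adjusted p = 0.320, with 18.2% called). The CHO difference at 72 h passed narrowly with a pseudocount of 5 (limma adjusted p = 0.0482) or a minimum of 50 counts in 3 animals (limma adjusted p = 0.0480), and with voom weights (0.52, limma adjusted p = 0.0320). It also passed without replicate 2 at 0 h (0.69, limma adjusted p = 0.0116) or 4_8 at 72 h (0.59, limma adjusted p = 0.0438). Between 6 h and 72 h, within set 4, the difference was 0.10 (95% interval -0.17 to 0.36, limma adjusted p = 0.599). The rise at 72 h did not pass with values scaled to the total count alone, where it was 0.15 (limma adjusted p = 0.213), and in that scaling the median of all miRNAs was shifted by -0.232. It also did not pass without any 1 of 5 animals, where it was 0.30 to 0.36: CHO or EtOH replicate 1 at 0 h, CHO replicate 4_9 and EtOH replicates 4_10 and 4_11 at 72 h.

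As a share of the signal, miR-122 took 53.9% ± 6.5 before surgery in untreated animals (SD, n = 6 at each time), and 60.1% ± 2.6 after 6 h, 58.6% ± 1.7 after 24 h and 59.6% ± 2.8 after 72 h. The difference at 6 h was 6.23 percentage points (exact permutation p = 0.05, adjusted p = 0.15) and at 72 h 5.70 (exact permutation p = 0.075, adjusted p = 0.193). The spread was widest at 0 h, where the 6 animals ran from 44.4% to 61.9%. Without replicate 2 of the CHO animals at 0 h, which had 59.7%, the differences were 8.42 and 7.89 percentage points (exact permutation, adjusted p = 0.04 for each).

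The saline-treated animals gave further replicates at 0 h and 24 h. In CHO animals with saline miR-122 was 18.32, 18.21 and 19.31 log2 CPM before surgery and 19.35, 19.08 and 19.31 a day after it. In EtOH animals with saline it was 18.99, 19.25 and 19.08 before and 19.13, 19.46 and 19.08 after surgery. In CHO animals 5 of the 6 values at 0 h lay under every value at 24 h, and the exception was replicate 3 of the saline animals. In EtOH animals the times overlapped.

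With untreated and saline animals together, miR-122 in CHO animals rose from 0 h to 24 h by 0.55, or 1.47-fold (SE 0.15, limma adjusted p = 0.00993, n = 6 against 6), with 25.2% of miRNAs called. With only the groups compared in the fit the rise did not pass (limma adjusted p = 0.0595). The difference was 0.91 in set 1, 0.54 in set 2 and 0.21 in set 3. In EtOH animals it was 0.10 (95% interval -0.20 to 0.40, limma adjusted p = 0.637), with 11.2% called, and 0.23, 0.04 and 0.04 in the sets. Over both diets miR-122 rose by 0.33 (SE 0.10, limma adjusted p = 0.0149), with 34.3% called. The test of the difference between diets gave -0.45 (SE 0.21, limma unadjusted p = 0.0386), which did not pass after adjustment (limma adjusted p = 0.474, n = 12 in each diet), and 0% of miRNAs were called in it. The median of all miRNAs in CHO animals was shifted by -0.296 when values were scaled to total count alone, where the rise of miR-122 was 0.26 (limma adjusted p = 0.0416).

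No such difference was seen for miR-192 at 24 h. In saline animals fed CHO its values were 13.47, 13.47 and 13.12 log2 CPM before surgery and 13.50, 13.30 and 13.27 a day after it. In those fed EtOH they were 13.35, 13.68 and 13.62 before and 13.38, 13.24 and 13.48 after surgery. The times overlapped in both diets, and with untreated and saline animals together the difference over both diets was -0.011 (95% interval -0.24 to 0.22, limma adjusted p = 0.929). The difference between saline and untreated animals was -0.01 for miR-122 (95% interval -0.22 to 0.21, limma adjusted p = 0.971) and 0.0046 for miR-192 (95% interval -0.22 to 0.23, limma adjusted p = 0.974), with 1.4% of miRNAs called. The 2 miRNAs called were miR-21, lower with saline by -1.10 (limma adjusted p = 0.0407), and miR-199a-5p, higher by 0.34 (limma adjusted p = 0.0407). In EtOH animals at 0 h miR-21 was 11.12, 9.65 and 14.10 log2 CPM with saline and 14.99, 14.16 and 15.00 untreated. In the other diets and times the saline and untreated values of miR-21 overlapped.

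**Figure D4:**
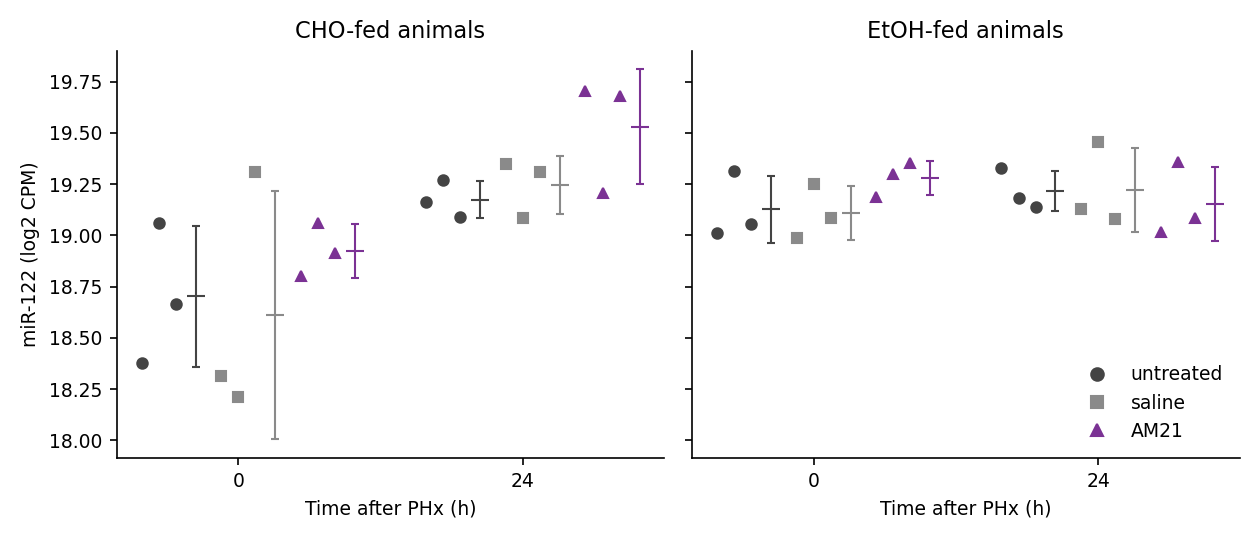
miR-122 in log2 CPM at 0 h and 24 h after PHx in CHO (left) and EtOH (right) animals, for untreated (circles), saline-treated (squares) and AM21-treated (triangles) animals, with the mean and SD of 3 animals to the right of the points. In CHO animals the 0 h points run from 18.21 to 19.31 and the 24 h points from 19.08 to 19.70, and in EtOH animals both times lie between 18.99 and 19.46.

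Between diets, miR-122 before surgery was higher in EtOH animals. In untreated animals alone the difference at 0 h was 0.42 (SE 0.18, limma adjusted p = 0.217), with 2.1% of miRNAs called. With the saline animals it was 0.46, or 1.38-fold (SE 0.15, limma adjusted p = 0.0406, n = 6 against 6), with 12.6% called. The difference was 0.65 in set 1, 0.65 in set 2 and 0.08 in set 3. The call was lost with values scaled to total count alone (0.21, limma adjusted p = 0.105), to the 100 highest miRNAs (0.37, limma adjusted p = 0.0939) or to the total without miR-122 (0.41, limma adjusted p = 0.0833), and with only the groups compared in the fit (limma adjusted p = 0.165). It was also lost with 8 of the 12 animals left out singly (0.36 to 0.48, limma adjusted p up to 0.133). These were CHO replicates 1 and 3 untreated and 1 and 2 with saline, and EtOH replicates 2 and 3 untreated and 2 and 3 with saline.

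At the later times the diets were closer. The difference of EtOH from CHO animals in miR-122 was 0.19 at 6 h (95% interval -0.19 to 0.56, limma adjusted p = 0.783), 0.01 at 24 h with saline animals included (95% interval -0.29 to 0.31, limma adjusted p = 0.985) and 0.17 at 72 h (95% interval -0.21 to 0.54, limma adjusted p = 0.770), with 0% of miRNAs called in each. At 24 h in the untreated and saline animals, 20 of 143 miRNAs had an unadjusted p under 0.05, against 13 at 6 h and 14 at 72 h. Over the 4 times in untreated animals miR-122 differed by 0.20 (SE 0.09, limma adjusted p = 0.135, and 0.0494 without CHO replicate 2 at 0 h) and miR-192 by 0.22 (SE 0.12, limma adjusted p = 0.209), with 11.2% of miRNAs called.

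For miR-192 no difference between diets passed. Before surgery, with saline animals included, it was 0.27 (95% interval -0.06 to 0.59, limma adjusted p = 0.272), and 0.17, 0.35 and 0.29 in sets 1 to 3. EtOH animals also had higher total counts at 0 h, 92245 to 205241 against 58168 to 130953 in the untreated and saline CHO animals. With log10 total count in the fit, the miR-192 difference at 0 h, untreated and saline, was -0.07 (limma adjusted p = 0.791), against 0.57 for miR-122 (limma adjusted p = 0.0258).

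AM21 lowered the read-out of its own target, which checks the labels. The 12 animals given AM21 had 15 to 32 counts of miR-21, and the 24 untreated or saline animals at 0 h and 24 h had 120 to 9934. The lowest of these, 120 and 448, were EtOH animals at 0 h with saline. They are part of the lower miR-21 with saline given above, which is therefore not separate from them. Whether AM21 bound to miR-21 kept the probe from it was not tested, so this is the signal left to the assay.

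With AM21, miR-122 in CHO animals was 18.80, 19.06 and 18.91 log2 CPM before surgery and 19.70, 19.21 and 19.68 a day after it. In EtOH animals it was 19.19, 19.30 and 19.35 before and 19.02, 19.36 and 19.08 after surgery. The 2 highest values of all 48 animals were among the CHO animals at 24 h. Against untreated and saline animals, AM21 differed by 0.17 over both diets and times (95% interval -0.01 to 0.36, limma adjusted p = 0.324, n = 12 against 24), with 5.59% of miRNAs called. The difference was 0.22, 0.13 and 0.17 in sets 1 to 3. The share of the signal was 59.8% ± 5.3 with AM21 (SD, n = 12) and 56.4% ± 5.9 without (SD, n = 24), a difference of 3.35 percentage points (exact permutation p = 0.0352, adjusted p = 0.127). The signal of the AM21 animals held little miR-21, whose mean share over all 48 animals, those with AM21 included, was 2.14%. Its part in the difference of the miR-122 share was not tested.

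The time difference of miR-122 with AM21 was again higher in CHO than in EtOH animals. In EtOH animals it was 0.10 without AM21 and negative with it, and neither passed. In CHO animals the groups did not overlap, but how many of all miRNAs did the same was not counted. The difference of 24 h from 0 h in these animals was 0.61 (SE 0.21, limma adjusted p = 0.0655), with 9.09% of miRNAs called. Without replicate 2 at 24 h it was 0.77 (limma adjusted p = 0.0326). It also passed with RLE scaling (0.63, limma adjusted p = 0.0438), the total without miR-122 as scale (0.75, limma adjusted p = 0.0274), voom weights (0.61, limma adjusted p = 0.0445), log10 total count in the fit (0.67, limma adjusted p = 0.0352) or all 48 animals in the fit (0.61, limma adjusted p = 0.0409). In EtOH animals it was -0.13 (95% interval -0.55 to 0.30, limma adjusted p = 0.768), with 0% called and 20 miRNAs at an unadjusted p under 0.05. By set, the CHO difference was 0.90, 0.15 and 0.77, and the EtOH difference -0.17, 0.06 and -0.27.

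With AM21, miR-192 in CHO animals was 13.80, 13.29 and 13.55 log2 CPM before surgery and 13.20, 13.19 and 13.34 a day after it. In EtOH animals it was 13.75, 13.20 and 13.73 before and 13.80, 13.47 and 13.56 after surgery. Each group overlapped its untreated and saline counterparts. The difference of AM21 from untreated and saline animals was 0.08 (95% interval -0.11 to 0.28, limma adjusted p = 0.627).

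Over the 16 group means, the patterns of miR-122 and miR-192 were unrelated in value, with r = 0.015. The 3 miRNAs most like miR-122 were miR-667 (r = 0.958), miR-675 (r = 0.951) and miR-337 (r = 0.925). All 3 had few counts, with medians of 78.5 for miR-667, 220 for miR-675 and 74.5 for miR-337, while miR-122 had a median of 93524. Over the 48 animals the log2 ratio of miR-122 to miR-675 had an SD of 0.11, the smallest of the 142 ratios, whose median SD was 0.48. miR-675 stood at 0.232% of the miR-122 count, as the median over animals. Whether the 3 probes read a signal separate from that of miR-122 was not tested, nor how much of this SD is counting error. The within-group deviations of miR-122 went against the log2 of the TMM factor, the scaling factor of an animal, with r = -0.96. The log2 CPM of every miRNA is computed with this factor, so the r values above are not independent of it. The ratio of miR-122 to miR-675 within an animal does not use it.

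The 3 miRNAs most like miR-192 were let-7f (r = 0.882), miR-126 (r = 0.862), which is known from endothelial cells, and miR-203 (r = 0.811). miR-194 had r = 0.763 over the group means and was the most like it in rank order (rho = 0.894) and in the deviations within groups (r = 0.86). In spread of the log2 ratio to miR-192 over the 48 animals, miR-126 was the lowest of 142 with an SD of 0.23 and miR-194 the next with 0.23, against a median of 0.51. miR-126 was also lower at 6 h, by -0.89 over both diets (limma adjusted p = 0.00393).

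Of the 7 miRNAs listed as hepatocyte markers, 3 are in the table, miR-122, miR-192 and miR-194. At 6 h against 0 h over both diets 1 of the 3 was called lower and none higher, with a median of -0.20, beside 22 lower and 13 higher of all 143 with a median of 0.07. At 72 h against 0 h 1 of the 3, miR-122, was called higher, where 35.7% of all miRNAs were called, 26 higher and 25 lower. Their summed level was 366272 to 672603 CPM at 0 h, 518485 to 778010 at 6 h and 576072 to 785173 at 72 h, nearly all of it miR-122. Red blood cell miRNAs moved the other way at 72 h. miR-451 and miR-144, 2 of 3 listed, were both called lower than at 0 h with a median of -1.24, and their summed level was 1306 to 3791 CPM at 0 h and 550 to 1898 CPM at 72 h. Their part in the rise of miR-122 was not tested.

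Markers of other liver cells were also followed over time. Of 5 stellate and mesenchymal miRNAs listed, 4 are in the table, miR-199a-3p, miR-199a-5p, miR-143 and miR-145. Their summed level was 17403 to 22276 CPM at 0 h and 22775 to 31107 CPM at 6 h in untreated animals, without overlap. In the untreated and saline CHO animals it was 21108 to 24946 CPM before surgery and 14492 to 20287 CPM a day after it, again without overlap. Most of this sum was miR-145, with a mean share of the signal of 1.41%, against 0.432% for the next, miR-199a-3p. How many of all miRNAs were without overlap in these comparisons was not counted. At 6 h against 0 h over both diets 1 of the 4, miR-145, was called (0.53, limma adjusted p = 0.00803), where 24.5% of all miRNAs were. At 72 h miR-145 was called lower (-0.73, limma adjusted p = 0.000316) and miR-199a-5p higher (0.43, limma adjusted p = 0.0292), where 35.7% were called.

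Of 5 leukocyte miRNAs listed, 4 are in the table, miR-223, miR-150, miR-142-3p and miR-342-3p. Their summed level overlapped between all 4 times, at 2849 to 4183 CPM at 0 h and 3208 to 4640 CPM at 6 h. Against 0 h over both diets, 1 of the 4 was called at 6 h, miR-342-3p (0.68, limma adjusted p = 0.00476), where 24.5% of all miRNAs were called. At 72 h 1 was called, miR-150 (-0.70, limma adjusted p = 0.00194), where 35.7% of all were. In CHO animals at 24 h, untreated and saline, miR-145 (-0.39, limma adjusted p = 0.0244) and miR-150 (-0.52, limma adjusted p = 0.0142) were called lower, each 1 of 4, where 25.2% of miRNAs were called. The endothelial list had 1 of 2 in the table, miR-126, at 18149 to 46454 CPM at 0 h and 13134 to 21515 CPM at 6 h. The part of these cells in the differences of miR-122 and miR-192 was not tested.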

How the data were processed

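RNA of 48 livers was counted on NanoString probes. The authors scaled the counts by TMM (trimmed mean of M values, edgeR) and converted them with voom (limma) to log-cpm, and 1 table of log2 CPM for 143 miRNAs was deposited. The rule that kept these miRNAs is not given in the sources used here, and no control probes were analysed here. With the voom pseudocount of 0.5, all 6864 values came back to counts within 0.001 of whole numbers, with total counts of 58168 to 267582 per animal and TMM factors of 0.797 to 1.387, which were used for depth, shares and other scalings. TMM takes most miRNAs as unchanged, so differences in log2 CPM are relative to the other miRNAs.

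The deposited log2 CPM of all 143 miRNAs entered limma 3.58.1 (lmFit, eBayes; R 4.3.3) with 1 mean per group, for the 24 untreated animals (8 groups) and for the 36 animals at 0 h and 24 h (12 groups). P-values were adjusted by Benjamini-Hochberg over all miRNAs within a comparison and called under 0.05. Shares and ratios were compared by two-sided exact permutation within diet, time or both. Replicates were separate animals. The limma fit and the permutation test were tested on simulated data. The 2 miRNAs, the marker lists and the comparisons were chosen with earlier results of these data known. Other miRNAs named are miR-194, the 5 with the highest mean share, the 3 most like each member over the 16 group means, listed markers, miR-21, and any sharing a seed. Alternatives were other scalings, pseudocount, filter, weights, total count as covariate, other animals in the fit, a replicate block and leaving out each animal.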

Additional observations from a re-analysis of the deposited data

Results flagged for a closer look

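Each group of 6 untreated and saline-treated animals of 1 diet and time was searched for a single animal far from the others, in 24 such groups of values, where chance gives about 1 in 20. There were 2 such animals. In EtOH animals at 24 h, saline replicate 2 had 64.8% of its signal in miR-122, with the nearest other animal at 58.9%, a gap of 0.665 of the range, past Dixon's 95% critical value. In CHO animals at 24 h, untreated replicate 2 had miR-192 at 1.94% of the signal left after miR-122 is taken out, with the nearest other at 2.40% and a gap of 0.635 of the range. Its total count of 92286 was the lowest of the 24 h animals.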

How the results depend on the processing

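The fall of miR-192 at 6 h over both diets stayed past the threshold in all 10 alternatives and without each of 12 animals (-0.84 to -0.60), and its difference of 72 h from 6 h in 9 of 10 (0.38 with log10 total count as covariate) and without each animal. The rise of miR-122 by 24 h over both diets, untreated and saline, passed in 10 of 11 (0.153 with total count scaling) and without each of 24 animals. For 72 h against 0 h, miR-122 did not pass with total count scaling (0.152), the 100 highest miRNAs as scale (0.333), the total without miR-122 (0.333), the covariate (0.409) or only the groups compared (0.384). It passed at 6 h with the 100 highest (0.358) and the total without miR-122 (0.366), and at 24 h with saline animals added (0.328).

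Some differences that did not pass changed sign. For miR-192 at 24 h they were -0.082 with total count scaling, -0.168 with the covariate and -0.011 with saline animals added. At 72 h against 0 h they were -0.051 with total count scaling and -0.319 with the covariate, between diets at 0 h -0.073 with the covariate, and for AM21 -0.00083 and -0.046 with total count scaling and the covariate. For miR-122, 72 h against 6 h was -0.013 with total count scaling, -0.024 with the 100 highest and -0.033 with the total without miR-122. Between diets at 24 h it was -0.0043, -0.0099, -0.016 and -0.0083 with total count, RLE (median of ratios), the 100 highest and the total without miR-122. For saline, miR-122 was 0.0051, 0.017, 0.023 and 0.042 with total count, the 100 highest, the total without miR-122 and the covariate, and miR-192 -0.0037 with voom weights and -0.148 with the covariate. The cause was not tested. Between scalings, the differences of miR-122 and miR-192 from the median of all miRNAs are the same by construction.

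Leaving out 1 animal at a time, miR-122 over both diets was 0.206 to 0.377 at 6 h, 0.1997 to 0.371 at 24 h and 0.304 to 0.474 at 72 h against 0 h. Its diet difference was 0.164 to 0.249 over the 4 times and -0.0498 to 0.0439 at 24 h, and its saline difference -0.0947 to 0.0424. miR-192 was -0.083 to 0.160 at 24 h, -0.0870 to 0.0343 with saline animals added, -0.487 to 0.0455 for the diet by time interaction at 6 h, and -0.0713 to 0.0499 for saline. The share of miR-122 was 4.59 to 8.42 percentage points higher at 6 h, 4.06 to 7.89 at 72 h and 2.85 to 3.93 with AM21. The share of miR-192 at 6 h was -0.671 to -0.456, and the log2 ratio of miR-122 to miR-192 0.835 to 1.22. Without replicate 2 of the untreated CHO animals at 0 h, these shares and this ratio passed (adjusted p 0.0225 to 0.04).

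The set numbers 1 to 3 tie animals of different groups together. Deviations of same-numbered animals from their group means had every correlation over 0.1 in 10 of 66 pairs of groups at 0 h and 24 h. The highest were between untreated CHO and EtOH animals at 0 h, with 0.52, 0.79 and 0.65. The labels do not say whether the numbers mark feeding pairs, and the main fits did not use them. The diet difference of miR-122 in these untreated animals did not pass in any of 11 alternatives, the replicate block among them (limma adjusted p = 0.147 to 0.586). A fit with this replicate block changed no call of miR-122 or miR-192 in the 0 h and 24 h comparisons given here. In it, miR-122 in CHO animals at 24 h stayed at 0.554 (limma adjusted p = 0.0103). Among all miRNAs the block did change calls. Between diets in untreated animals, 3 were called without it and 8 with it at 0 h, and 3 and 6 at 24 h. The precision is limited by 3 animals per group.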
